A study of Mus musculus with 7 samples.

Results

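The 10 receptor genes described here encode G protein-coupled receptors that help set how much insulin a beta cell releases, and they were measured in the islets of db/db mice. They are Glp1r, Gipr, Gcgr, Ffar1, Gpr119, Ffar4, Sstr2, Sstr3, Adra2a and Chrm3, chosen by name, and each matched 1 row of the 51912 gene rows in the count table. All 10 passed the filter on low counts, among 16504 genes tested. The study measured messenger RNA by sequencing in whole isolated islets of 7 mice, 1 library per mouse. All 7 mice were db/db, so they lack a working long form of the leptin receptor and become obese and diabetic, and all 7 carried an adeno-associated virus (AAV). In 4 of them the virus encoded green fluorescent protein (AAV-GFP, the control), and in 3 it encoded adipsin, a complement protease made mainly by fat (AAV-Adipsin). Islets were taken 4 weeks later and cultured for 12 hours. There was no lean and no untreated group, and the labels do not state the promoter of the vectors, the cells they reached or the age of the mice.

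Islets are mixtures of endocrine cells with some blood vessel, immune and exocrine cells, so a lower level in these bulk libraries cannot tell fewer cells of a type from less RNA per cell. The defining hormones were present in every library, with Ins2 (insulin) at 108608 to 137638 CPM (read counts scaled to library size), Gcg (glucagon) at 5706 to 8543 and Sst (somatostatin) at 451 to 880. Of 4 fat cell markers listed, Adipoq and Plin1 had at most 2 counts in a library and Lep had 0. The other, Fabp4, averaged 32.2 CPM over the 7 libraries, and which cells it came from was not tested. Library totals ran from 29601707 to 43997400 counts. Cfd, the gene that encodes adipsin, had 1, 0, 0 and 0 counts in AAV-GFP replicates 1 to 4 and 3965, 839 and 1481 in AAV-Adipsin replicates 1 to 3. Replicate 1 of each group is described in the labels by the name of its treatment, and the other 5 libraries by a db number. These 2 treatment-named libraries stood apart from the 5 db-numbered ones for many genes, and the labels do not say what differed between them, so treatment differences are also given within each kind.

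The receptors divide by the G protein they are best known to use. Glp1r, Gipr, Gcgr and Gpr119 act mainly through Gs, which raises cyclic AMP in the beta cell and thereby amplifies insulin release once glucose is high. Sstr2, Sstr3 and Adra2a act through Gi/o, which lowers cyclic AMP, opens potassium channels and restrains release. Ffar1 and Chrm3 act mainly through Gq, phospholipase C and calcium from internal stores, and Ffar4 senses long-chain fatty acids, in islets mainly in delta cells.

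In GRCm38 (GENCODE M21) the Gs-coupled receptors lie apart, with Glp1r (ENSMUSG00000024027) at chr17:30901817-30940791 on the plus strand, Gipr (ENSMUSG00000030406) at chr7:19156061-19166127 on the minus strand, Gcgr (ENSMUSG00000025127) at chr11:120530699-120538986 on the plus strand and Gpr119 (ENSMUSG00000051209) at chrX:48667979-48674478 on the minus strand. The fatty acid receptors are Ffar1 (ENSMUSG00000044453) at chr7:30857390-30861564 on the minus strand and Ffar4 (ENSMUSG00000054200) at chr19:38097071-38114263 on the plus strand, and the muscarinic receptor is Chrm3 (ENSMUSG00000046159) at chr13:9875486-10360847 on the minus strand. The Gi/o-coupled receptors are Sstr2 (ENSMUSG00000047904) at chr11:113619342-113626028 on the plus strand, Sstr3 (ENSMUSG00000044933) at chr15:78537008-78544685 on the minus strand and Adra2a (ENSMUSG00000033717) at chr19:54044151-54048982 on the plus strand. No exon of the 10 overlaps one of another gene in that annotation.

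The promoters of 3 of the 4 Gs-coupled receptors are shown because these genes were highest in the same 2 libraries, as described below. Ffar1 and Sstr3 were also highest in those libraries, and their promoters are not shown. Each run is the 200 bases from 250 to 51 before the RefSeq start (GRCm38.p6), and capitals mark the 5 letters TGACG, the core of the cyclic AMP response element (CRE), on either strand. Gcgr lies at chr11:120530477-120530676 on the plus strand, Gpr119 at chrX:48674529-48674728 on the minus strand and Glp1r at chr17:30901617-30901816 on the plus strand.
Gcgr: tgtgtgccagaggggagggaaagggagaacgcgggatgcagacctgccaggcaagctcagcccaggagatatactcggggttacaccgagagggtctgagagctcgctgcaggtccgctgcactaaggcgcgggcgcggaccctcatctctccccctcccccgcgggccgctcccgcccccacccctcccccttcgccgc
Gpr119: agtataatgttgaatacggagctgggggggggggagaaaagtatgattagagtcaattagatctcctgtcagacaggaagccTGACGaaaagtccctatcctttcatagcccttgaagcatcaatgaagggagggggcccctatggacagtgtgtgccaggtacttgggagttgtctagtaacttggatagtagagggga
Glp1r: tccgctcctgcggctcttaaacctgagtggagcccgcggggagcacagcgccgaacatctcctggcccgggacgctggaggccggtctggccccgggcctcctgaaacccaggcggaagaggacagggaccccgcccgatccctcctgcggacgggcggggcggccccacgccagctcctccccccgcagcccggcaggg
The CRE core was found once in the Gpr119 run, from 168 to 164 bases before the start, and in neither the Gcgr nor the Glp1r run. RefSeq windows were at hand for 9 of the 10 receptors, all but Gipr, and 3 of them held the core (Gpr119, Sstr2 and Adra2a), where 12.7% of 32851 promoter windows of the same length do. The Adra2a window, at chr19:54045009-54045208, lies inside the GENCODE gene, which starts at 54044151, and not upstream of it. Both Sstr3 windows, at chr15:78544396-78544595 and chr15:78541457-78541656, also lie inside their gene. The Ffar1 window, at chr7:30861521-30861720 on the minus strand, reaches into its gene, which begins at 30861564. In Sstr2 the core occurred on both strands, overlapping, from 58 to 51 bases before the start. The homeodomain core TAATTA (in 4.19% of all windows) and the FOXA core TGTTTAC (2.58%) were in none of the receptor windows. The E-box CAGATG (12.0%) was in that of Ffar1 alone, in the part that lies inside the gene. The windows of Gcgr and Glp1r had a GC content of 69.5% and 75.0%, against a median of 51.5% over all windows, and that of Gpr119 had 48.5%. These matches describe letters and not bound sites.

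Per length, Sstr3 was the most abundant of the receptors and Sstr2, its relative for the same hormone, the least. Mean levels over the 7 libraries, in CPM per kilobase of exon, were 72.7 ± 6.69 for Sstr3 (SD, n = 7), a somatostatin receptor concentrated in the cilia of beta cells. Adra2a, the alpha-2A adrenergic receptor through which adrenaline stops insulin release, followed at 43.8 ± 7.03 (SD, n = 7). Ffar1, the long-chain fatty acid receptor GPR40, was at 33.8 ± 4.56 and Glp1r, the receptor for glucagon-like peptide 1, at 29.7 ± 9.57 (SD, n = 7 each). Gcgr, the glucagon receptor, was at 20.3 ± 8.25, and Gpr119, a receptor for lipid amides, at 8.30 ± 2.06 (SD, n = 7 each). Chrm3, the muscarinic receptor for acetylcholine, was at 6.31 ± 0.828 and Gipr, the receptor of the other incretin hormone, at 4.78 ± 2.15 (SD, n = 7 each). Ffar4, also known as GPR120, was at 2.01 ± 0.405 and Sstr2, the somatostatin receptor best known on alpha cells, at 1.41 ± 0.453 (SD, n = 7 each).

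The order held in all 7 libraries for Sstr3 above Adra2a, Gcgr above Gpr119, Gipr above Ffar4 and Ffar4 above Sstr2. Neighbours elsewhere were not separated, since Adra2a exceeded Ffar1 in 5 of 7 libraries, Ffar1 exceeded Glp1r in 5, Glp1r exceeded Gcgr in 6, Gpr119 exceeded Chrm3 in 6 and Chrm3 exceeded Gipr in 5. Scaled by coding length in place of exon length, 4 of the 10 receptors kept their rank, and Ffar1 (157 CPM per kilobase of coding sequence) stood above Adra2a (152), Chrm3 (22.3) above Gpr119 (18.7) and Sstr2 (2.63) just above Ffar4 (2.61). Among 72 receptor genes, the 10 and 62 others listed for islets, Sstr3 ranked 1st, above 97.3% of the genes tested, Adgrg1, an adhesion receptor known from beta cells, 2nd at 64.2 CPM per kilobase of exon, and Ffar2, a short-chain fatty acid receptor, 6th at 20.6. Ffar4 and Sstr2 ranked 29 and 32. Both rested on 82 to 145 counts per library. The lowest, 82 counts of Ffar4, has a 95% counting interval from 65.2 to 102.

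**Figure D1:**
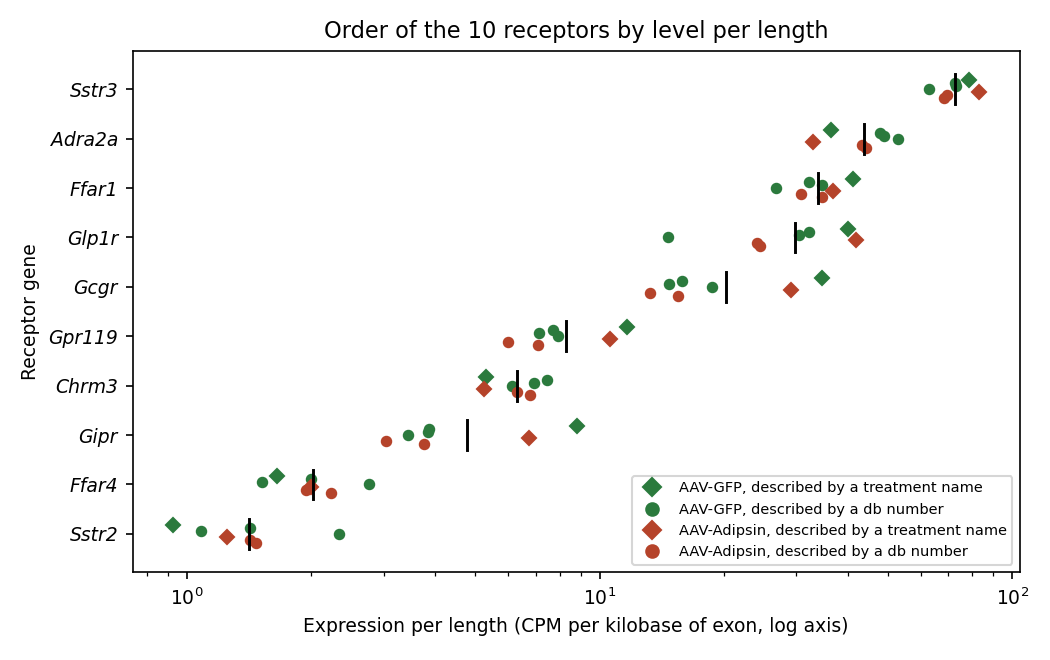
Level of each receptor per length, in CPM per kilobase of exon on a log axis, with 1 point per library (green AAV-GFP, red AAV-Adipsin, diamonds for the treatment-named libraries, circles for the db-numbered ones) and a black bar at the mean of 7. Sstr3 lies to the right of the others in each library, while the points of Glp1r, Gcgr and Gipr spread widely and end at the right in diamonds.

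In the comparison of adipsin with the control vector, no receptor passed the test. By edgeR's quasi-likelihood test with Benjamini-Hochberg adjustment 0 of 10 passed, where 1 gene of all tested did (0.00606%), and each receptor had an adjusted p of 1.00. At an unadjusted p under 0.05 there were 0 of 10 (1.16% of all genes), DESeq2 (0.0242% of all genes called) and limma-voom (which called 0 genes in all) also called 0 receptors, and the groups overlapped for all 10, where 2.73% of genes did not overlap. The receptors had a median log2 difference of -0.07 with 4 of 10 above 0, beside a median of -0.01 and 46.2% above 0 over all genes.

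Among the Gs-coupled receptors, Glp1r stood at 233, 187, 176 and 85.2 CPM in AAV-GFP replicates 1 to 4 and at 244, 140.1 and 142 CPM in AAV-Adipsin replicates 1 to 3. The treatment-named library was highest in both groups and AAV-GFP replicate 4 lowest of all. The AAV-GFP mean of 170.5 ± 61.9 CPM (SD, n = 4) and the AAV-Adipsin mean of 175 ± 59.2 (SD, n = 3) gave a log2 difference of 0.04 (SE 0.34, 95% interval -0.76 to 0.84). Changes within that interval, in either direction, were not excluded, and the smallest detectable change was not tested.

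Gipr had 30.7, 13.4, 13.4 and 11.9 CPM in AAV-GFP replicates 1 to 4 and 23.4, 10.6 and 13.1 CPM in AAV-Adipsin replicates 1 to 3. Replicate 1 of each group was again high and the other 5 libraries lay close together. The log2 difference was -0.15 (SE 0.41, 95% interval -1.09 to 0.80), the widest interval of the 10. Gcgr had 90.9, 41.5, 38.7 and 49.2 CPM in AAV-GFP and 76.2, 34.8 and 40.7 CPM in AAV-Adipsin, with the same pair of high libraries. Its log2 difference was -0.12 (SE 0.39, 95% interval -1.03 to 0.78). Gpr119 had 26.5, 17.5, 16.1 and 18.0 CPM in AAV-GFP and 24.1, 13.6 and 16.04 CPM in AAV-Adipsin, at a log2 difference of -0.12 (SE 0.23, 95% interval -0.65 to 0.40). Without AAV-GFP replicate 1 the differences of Gipr, Gcgr and Gpr119 turned to 0.29, 0.24 and 0.07, and without AAV-Adipsin replicate 2 to 0.07, 0.09 and 0.04.

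**Figure D2:**
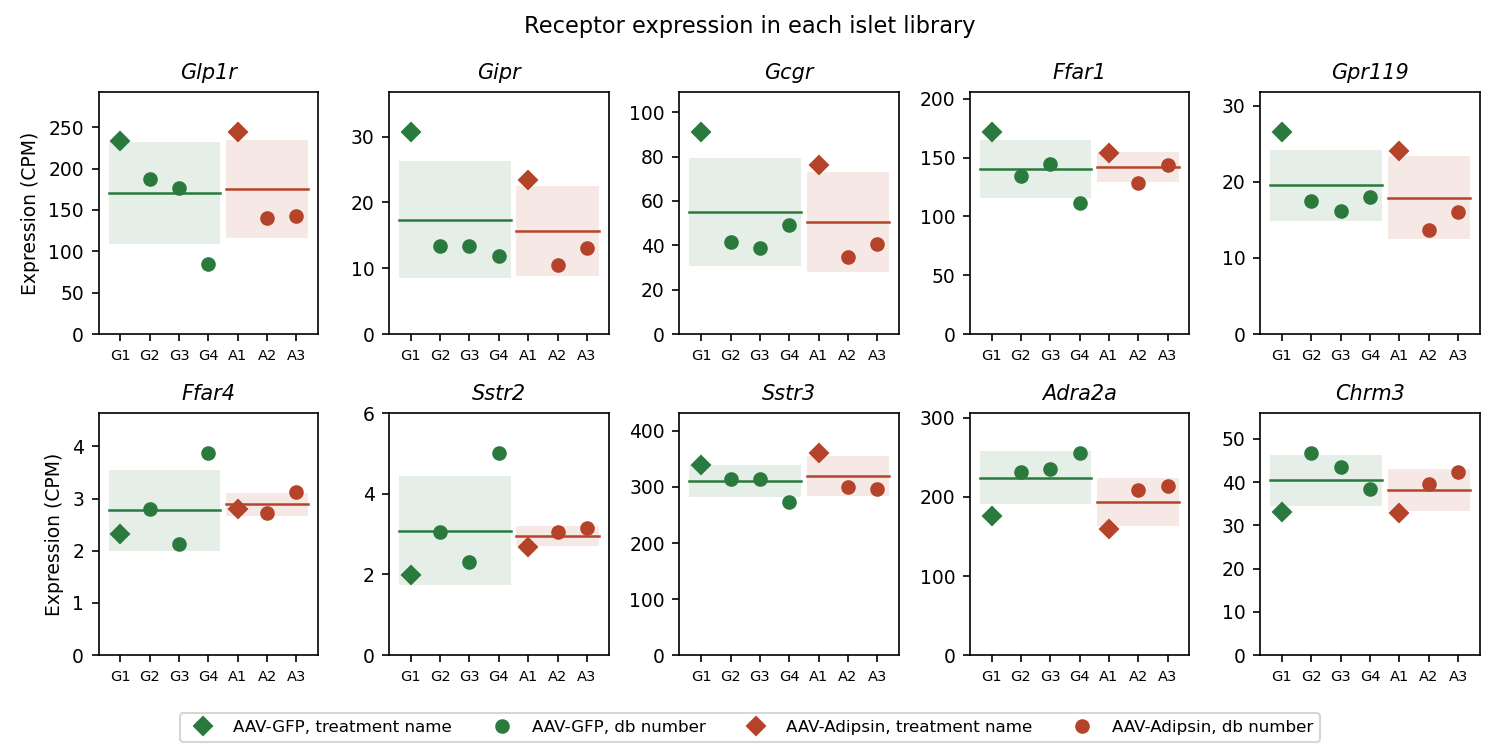
Expression of each receptor in CPM (linear axes from 0) in AAV-GFP replicates 1 to 4 (G1 to G4, green) and AAV-Adipsin replicates 1 to 3 (A1 to A3, red), with lines at group means and bands of 1 SD; diamonds are the treatment-named libraries. The diamonds of Gipr, at 30.7 and 23.4 CPM, stand above the circles at 10.6 to 13.4, while those of Adra2a, at 176 and 159, stand below the circles at 209 to 255.

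The Gi/o-coupled receptors overlapped between the groups as well. Sstr3 was the steadiest of the 10, at 340, 315, 315 and 272 CPM in AAV-GFP and 360, 301 and 296 CPM in AAV-Adipsin. Its log2 difference of 0.04 (SE 0.11) had a 95% interval from -0.21 to 0.28. Adra2a was at 176, 231, 236 and 255 CPM in AAV-GFP and at 159, 209 and 214 CPM in AAV-Adipsin. The 3 AAV-Adipsin values all lay under the AAV-GFP median, yet above AAV-GFP replicate 1 in 2 of the 3. Its log2 difference was -0.21 (SE 0.15, 95% interval -0.55 to 0.13, exact permutation p = 0.286). Sstr2 was at 1.98, 3.05, 2.31 and 5.003 CPM in AAV-GFP and at 2.67, 3.04 and 3.15 CPM in AAV-Adipsin, and its log2 difference of -0.05 (SE 0.31) became 0.28 without AAV-GFP replicate 4. That library also had the highest Sst, at 880 CPM against 451 to 584 in the others, and the part of such cell makeup in the Sstr2 value was not tested.

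Of the remaining receptors, Ffar1 was at 171, 134, 145 and 112 CPM in AAV-GFP and at 154, 128 and 144 CPM in AAV-Adipsin. The groups overlapped, with a log2 difference of 0.01 (SE 0.14, 95% interval -0.30 to 0.33). Chrm3 was at 33.2, 46.6, 43.4 and 38.3 CPM in AAV-GFP and at 32.8, 39.5 and 42.3 CPM in AAV-Adipsin, where replicate 1 was the lowest of each group. The log2 difference of Chrm3 was -0.08 (SE 0.14, 95% interval -0.39 to 0.23). Ffar4 was at 2.31, 2.79, 2.13 and 3.86 CPM in AAV-GFP and at 2.80, 2.73 and 3.13 CPM in AAV-Adipsin, at a log2 difference of 0.06 (SE 0.24, 95% interval -0.48 to 0.60).

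Ratios of 2 receptors within a library, which do not depend on scaling between libraries, overlapped between the treatments as well. Per length of exon, Glp1r exceeded Gipr 4.55, 8.36, 7.90 and 4.27 times in AAV-GFP and 6.24, 7.95 and 6.52 times in AAV-Adipsin (log2 difference 0.20, exact permutation p = 0.514). Sstr3 exceeded Sstr2 27.0 to 85.1 times in AAV-GFP and 46.5 to 66.8 times in AAV-Adipsin (exact permutation p = 0.857), and Ffar1 exceeded Gpr119 3.38 to 4.87 and 3.47 to 5.11 times (exact permutation p = 0.400). Adjusted over these 3 ratios the exact permutation p values were 0.771, 0.857 and 0.771, in a design whose smallest possible value is 0.0571.

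With the kind of description as a term in the model, the residual spread of several receptors was smaller. Adra2a was then lower in AAV-Adipsin by a log2 difference of -0.17 (SE 0.06), with an unadjusted edgeR p of 0.0229 that did not pass (adjusted p = 1.00, where 2.78% of all genes had an unadjusted p under 0.05). The difference was -0.14 between the treatment-named libraries and -0.19 among the db-numbered ones. Gpr119 (-0.19, SE 0.09), Gcgr (-0.21, SE 0.10) and Gipr (-0.21, SE 0.11) had negative values in both kinds too, at -0.14 and -0.22 for Gpr119, -0.25 and -0.19 for Gcgr and -0.39 and -0.13 for Gipr, and none passed. The other receptors had, in the same order of kinds, 0.07 and 0.00 (Glp1r), -0.16 and 0.07 (Ffar1), 0.27 and 0.04 (Ffar4), 0.42 and -0.08 (Sstr2), 0.08 and -0.01 (Sstr3), and -0.02 and -0.06 (Chrm3). Of the cell type markers none passed between the treatments, though several lists lay on 1 side of 0. All members tested were above 0 for macrophages (6, median 0.60), stellate and mesenchymal cells (7, 0.23), endothelium (5, 0.21) and smooth muscle (3, 0.57), and below 0 for acinar cells (9, -0.34). For beta cells 9 of 10 markers were below 0 (median -0.06), and for alpha cells 6 of 8 were above 0 (0.10). Their summed levels overlapped between the groups, and the macrophage gene Lyz2 was at 61.7 CPM in AAV-Adipsin replicate 2 against 19.1 and 20.5 in the others of its group and 12.6 to 27.6 in AAV-GFP. The part of these cells in the receptor values was not tested. The term for a treatment difference that itself depends on the kind of description was past the edgeR threshold for 0 of 10 receptors and 0 genes (0%), with 0 of 10 receptors and 0.818% of genes at an unadjusted p under 0.05.

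Several receptors differed between the 2 treatment-named libraries and the 5 db-numbered ones. Gipr, Gcgr and Gpr119 were 2.17-, 2.04- and 1.55-fold higher in the treatment-named libraries, and Adra2a was lower there, at a ratio of 0.731. By edgeR with treatment as a covariate, 3 of 10 receptors passed as higher and 1 as lower, where 4.22% and 5.57% of all genes did. The receptors were chosen with earlier results of these data known, so such shares are a description and not a test of the set. At an unadjusted edgeR p under 0.05 there were 8 of 10, where 28.2% of all genes were. DESeq2 called these 4 and, in addition, Glp1r as higher and Chrm3 as lower, where it called 15.3% of all genes and 6.66% as higher. The libraries of the 2 kinds did not overlap for 8 receptors, 6 higher and 2 lower, where 18.7% and 18.9% of genes did not. The median over the 10 was 0.26, beside -0.01 over all genes.

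The glucagon and incretin receptors led. Gipr averaged 27.0 CPM in the 2 treatment-named libraries and 12.5 ± 1.23 in the others (SD, n = 5), a ratio of 2.17 and a log2 difference of 1.13 (SE 0.11, edgeR adjusted p = 0.00247). Gcgr averaged 83.5 CPM against 41.0 ± 5.28 (SD, n = 5), a log2 difference of 1.05 (SE 0.10, edgeR adjusted p = 0.00247). Gpr119 averaged 25.3 CPM against 16.3 ± 1.69 (SD, n = 5), at 0.66 (SE 0.09, edgeR adjusted p = 0.00843). Glp1r, with 238 CPM against 146 ± 40.0 (SD, n = 5), had a log2 difference of 0.71 (SE 0.27) that did not pass in edgeR (adjusted p = 0.150) and did in DESeq2 (adjusted p = 0.0276). Without AAV-GFP replicate 4, its lowest library, edgeR called Glp1r too, at 0.58 (adjusted p = 0.00491).

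Of the receptors that restrain release 1 passed, as lower. Adra2a averaged 167 CPM in the treatment-named libraries and 229 ± 18.5 in the others (SD, n = 5), a log2 difference of -0.43 (SE 0.07, edgeR adjusted p = 0.0126). Sstr3 was at 350 against 300 ± 17.5 CPM, at 0.22 (SE 0.08, edgeR adjusted p = 0.122), and Sstr2 at -0.51 (SE 0.32, edgeR adjusted p = 0.331). Of the Gq-coupled pair, Ffar1 was at 0.29 (SE 0.11, edgeR adjusted p = 0.134) and Chrm3 at -0.35 (SE 0.09, edgeR adjusted p = 0.0511). Ffar4 was at -0.21 (SE 0.25, edgeR adjusted p = 0.630). Summed per length of exon, the 4 Gs-coupled receptors made up 36.7% and 35.4% of the 10 in the treatment-named libraries and 22.6% to 26.7% in the db-numbered ones. The 3 Gi/o-coupled receptors made up 44.7% and 47.0% against 54.7% to 59.5%, with sums of 116 and 117 against 114 to 123 CPM per kilobase.

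**Figure D3:**
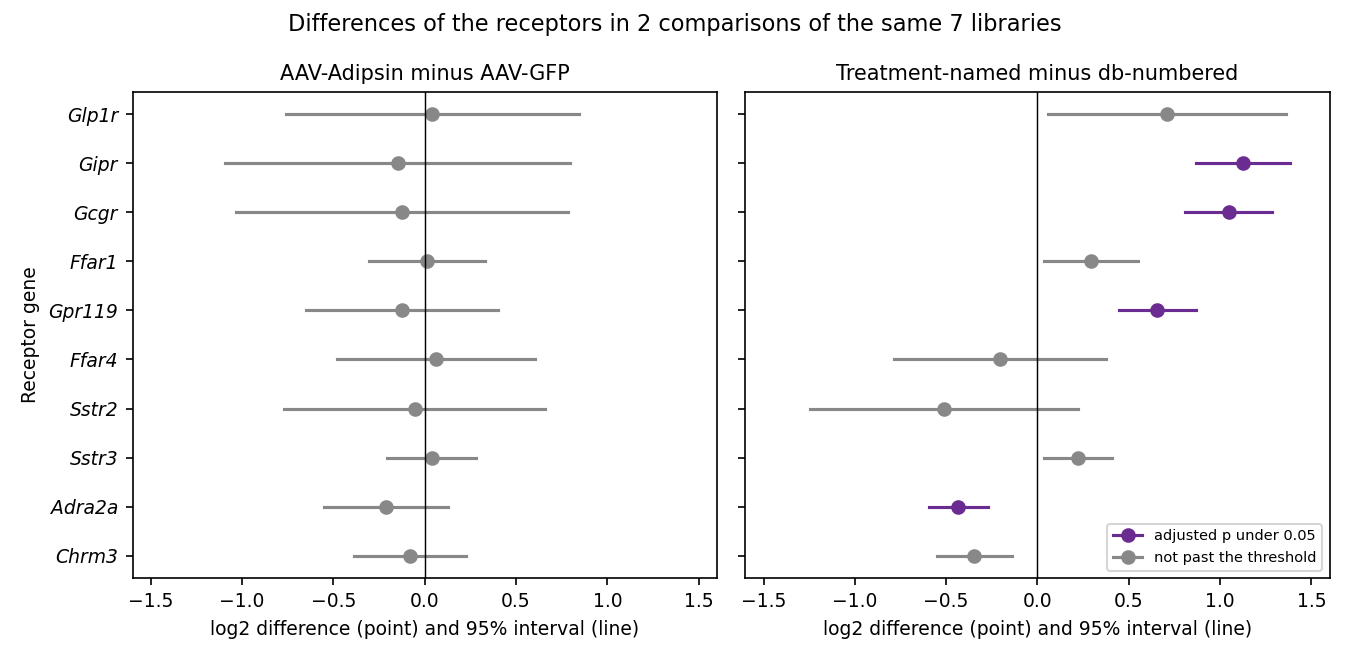
Log2 differences of the 10 receptors (points) with 95% intervals (lines), at left for AAV-Adipsin minus AAV-GFP and at right for treatment-named minus db-numbered libraries; purple marks an edgeR adjusted p under 0.05. All intervals at left include 0, and at right Gipr, Gcgr and Gpr119 lie above 0 and Adra2a below it in purple. At right the unadjusted intervals of Glp1r, Ffar1 and Sstr3 (above 0) and Chrm3 (below 0) also exclude 0, without an adjusted p under 0.05.

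These differences rest on 2 libraries, so leaving out either leaves that kind with 1 library, which is assumed to vary like the others, and a weaker test. Without AAV-GFP replicate 1 no receptor passed, with values of 0.98 for Gipr, 1.01 for Gcgr, 0.69 for Gpr119 and -0.41 for Adra2a, and 39 genes (0.242%) were called in all. Without AAV-Adipsin replicate 1 Gipr passed, at 1.25, among 55 genes (0.330%), and Gcgr (1.08), Gpr119 (0.62) and Adra2a (-0.45) did not, so the differences were of like size in both fits. Adra2a also missed the threshold without AAV-Adipsin replicate 2 (-0.45, edgeR adjusted p = 0.0521) or 3 (-0.43, edgeR adjusted p = 0.0501), and 8 of 10 receptors passed without AAV-GFP replicate 4, when 26.6% of all genes did.

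Markers of beta cells, and 1 of delta cells, differed between the kinds of description. Of 10 beta cell markers, 4 were higher in the treatment-named libraries by edgeR and 0 lower. Of all genes, 4.22% were called higher and 5.57% lower. The 4 were Slc30a8 (log2 difference 0.64), Iapp (0.40), Slc2a2 (0.85) and Ucn3 (0.89). Of the 10 markers, 7 were above 0 and 3 below it, namely Ins1 (-0.40), G6pc2 (-0.17) and Pdx1 (-0.04). The summed level of the 10, 192642 and 204436 CPM, overlapped the 164159 to 203220 CPM of the db-numbered libraries. The 8 alpha cell markers summed to 9663 and 9700 CPM against 6624 to 9116, with 6 of 8 above 0 and 0 past the threshold. Of 7 delta cell markers 1 passed, as higher, namely Neurog3 (0.48), which is also known as a marker of endocrine progenitors. The delta cell list had 5 of 7 members below 0 and a median of -0.20, with sums of 673 and 765 against 625 to 1089 CPM. All 9 acinar markers tested were below 0 and none passed, with sums of 3588 and 4539 against 2392 to 15436 CPM, and Amy2a5 had no counts. Macrophage markers, 6 of 6 below 0 with none past the threshold, summed to 67.0 and 72.3 against 63.7 to 200.05 CPM, and stellate and mesenchymal markers, 7 of 7 below 0 with none past it, to 82.8 and 107 against 38.7 to 268 CPM. The part of these in the receptor differences was not tested.

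Downstream of the receptors, no signalling gene passed between the treatments. Of 208 further genes on 10 lists (other receptors, ligands, G proteins, cyclases, phosphodiesterases, kinases and CREB, cyclic AMP-induced genes, phospholipase C, potassium channels and desensitisation), 174 were tested and 0 passed in edgeR or DESeq2. Of these 1 had an unadjusted p under 0.05, fewer than the 1.16% over all genes, namely Rapgef3, which encodes the cyclic AMP sensor Epac1, at 10.4, 9.74, 9.38 and 9.70 CPM in AAV-GFP and 11.3, 12.4 and 11.8 CPM in AAV-Adipsin. The lowest AAV-Adipsin value of Rapgef3 lay above the highest AAV-GFP value, as for 2.73% of all genes in either direction, and the log2 difference was 0.27 (SE 0.10), with an adjusted p of 1.00 in edgeR. The list of adenylyl cyclases, which make cyclic AMP, had 9 of 9 members above 0 with a median of 0.20 (46.2% of all genes were above 0), none with an unadjusted p below 0.17, led by p by the weakly expressed Adcy8 (0.46, SE 0.31) and Adcy2 (0.54, SE 0.42), and at 0.05 and 0.14 for the most abundant per length, Adcy6 and Adcy9. The potassium channels of the GIRK family had 2 members tested, Kcnj3 at 0.27 and Kcnj6 at 0.11. The other 8 lists had medians between -0.06 and 0.06.

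Between the kinds of description, 24 of these 174 genes passed (13.8%, beside 9.79% of all genes), 15 higher and 9 lower in the treatment-named libraries. The lists, too, were chosen with earlier results of these data known, so these shares carry no test. The following were picked after their values were seen. Regulators of G protein signalling, which shorten the signal of a receptor, had the largest differences of the 24, in each direction. Rgs11 was at 111 and 67.5 CPM in the treatment-named libraries and at 24.3 to 32.5 CPM in the others (log2 difference 1.62, SE 0.17, edgeR adjusted p = 0.00320). Rgs4, which acts on Gi/o and Gq subunits, was at 387 and 366 CPM against 761 to 1159 CPM (-1.33, SE 0.14, edgeR adjusted p = 0.00329). Ramp1, a partner protein of class B receptors, was higher (0.67), as was Rgs2 (0.40), and Rgs9 was lower (-0.44).

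Among G protein subunits, Gna14, a Gq-type alpha subunit, was at 16.6 and 14.4 CPM against 26.7 to 38.02 CPM (-1.11, SE 0.15, edgeR adjusted p = 0.00807), and Gng2 (-0.72) and Gna13 (-0.28) were lower too. Gnal, a Gs-type alpha subunit, was higher (0.53), and so was Gnai1, which inhibits cyclases (0.40). The more abundant genes of the same types did not pass, with Gnas at -0.38 (SE 0.37), Gnai2 at -0.03 and Gnai3 at -0.20. Adcy1, a calcium-activated cyclase, was lower (-1.14), while 6 of the 9 cyclases tested were above 0, with a median of 0.26. The cyclase list summed to 231 and 234 CPM in the treatment-named libraries against 160 to 206 CPM in the others. The cyclic AMP phosphodiesterases Pde4c (1.12) and Pde3a (0.43) were higher, and 8 of 15 members of their list were above 0, with a median of 0.04. Of the cyclic AMP-induced genes Per1 (0.59), Irs2 (0.46) and Rgs2 were higher and Junb (-0.98) lower, and over its 17 tested members, 8 of them above 0, the list had a median of -0.02. No member of the list of protein kinase A, Epac and CREB genes passed, with a median of -0.07 over 17.

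Ligand genes and other receptors also differed. Th and Ddc, the enzymes that make dopamine, were higher in the treatment-named libraries, at 76.4 and 63.9 CPM against 42.5 to 49.4 CPM for Th (0.61, SE 0.07, edgeR adjusted p = 0.00385) and at 0.56 for Ddc, and Pnpla2, a triglyceride lipase, was lower (-0.38). The galanin receptor Galr1 (0.57), the purine receptor P2ry1 (0.56) and the amino acid receptor Gpr142 (0.43) were higher, and the prostaglandin receptor Ptger4, at 4.45 and 3.92 CPM against 7.38 to 10.9 CPM, was lower (-1.11). Of 16 phospholipase C and calcium genes Trpm4, a calcium-activated channel, passed (0.38), and of 2 GIRK channels none.

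**Figure D4:**
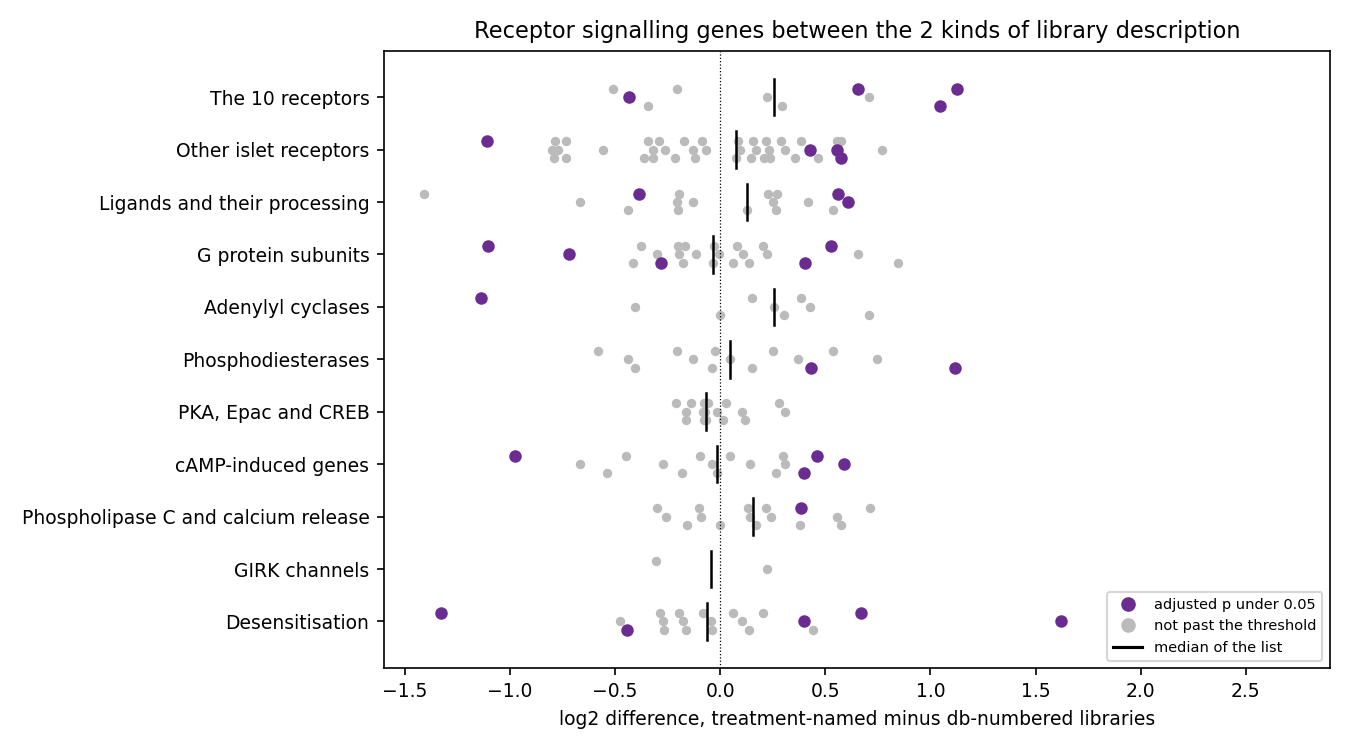
Log2 difference between treatment-named and db-numbered libraries for each tested gene of the 10 receptors and of 10 signalling lists (points), purple where the edgeR adjusted p was under 0.05, with black bars at list medians. Purple points lie on both sides of 0 for several lists, from Rgs4 at -1.33 to Rgs11 at 1.62, and none are among the protein kinase A, Epac and CREB genes or the GIRK channels.

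The genes most like 9 of the receptors over the 7 libraries were found by Pearson correlation of log2 CPM among 12011 other protein-coding genes. For Glp1r they were Rap1gap2 and Fam160b2 (r = 0.997 and 0.996), for Gipr Rhpn1 and Mlxipl (0.997 and 0.996), for Gcgr Agbl3 and Uros (0.997 and 0.996) and for Gpr119 Trpt1 and Kazald1 (0.996 and 0.993). Mlxipl encodes the glucose-responsive transcription factor ChREBP, and Rap1gap2 a GTPase activator of Rap1. For Ffar1 they were Rnf112 and Gfm2 (0.987 and 0.986), for Adra2a Fam8a1 and Fam219a (0.994 and 0.992) and for Chrm3 Mtpap and Fbxo11 (0.992 and 0.991). The values were lower for the weakly expressed Ffar4, with Tppp3 and 2610001J05Rik (0.985 and 0.967), and Sstr2, with Lrrc42 and Rpia (0.981 and 0.979). With 7 libraries that fall into 2 kinds, these correlations describe the libraries and carry no test.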

How the data were processed

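Polyadenylated RNA of cultured islets was sequenced from 7 mice with a stranded kit, per the labels' protocols. The submitters' processing notes name STAR and the mm10 (GRCm38) build. Those notes, as used here, give no version, counter, strand setting or annotation. The authors deposited raw read counts per Ensembl gene, 1 column per library, with no normalization, and no column was left unused. Of 51912 identifiers 51719 matched GENCODE mouse release M21 (release number 21), which gave symbols, exon lengths and coding lengths.

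Counts were analysed in R 4.3.3 with edgeR 4.0.16: filterByExpr by group, TMM scaling, robust quasi-likelihood fits over all 16504 genes, two-sided tests, Benjamini-Hochberg adjustment over all genes and a threshold of 0.05. The SE is the log2 difference divided by the square root of F, and 95% intervals use the test's degrees of freedom. DESeq2 1.42.0 and limma-voom (limma 3.58.1) were alternatives. CPM is scaled by TMM, and log2 CPM carried a prior count of 2. Intervals on counts are exact Poisson and cover counting error only. Exact permutation tests over the 35 divisions of the libraries were two-sided, as 2 times the smaller tail. The fits were also run on simulated data with 200 changed genes, and the outcome is not reported here.

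The receptors and lists were chosen with earlier results of these data known. Named are all 10 receptors, the 2 most correlated protein-coding genes of each with a mean log2 CPM of at least 1 (for Sstr3 not reported here), and list members with the smallest p or highest level per length; others are said to be picked after their values were seen. The data do not settle whether replicate numbers pair the mice. Deviations from group means correlated at 0.66, -0.01 and 0.01 for numbers 1, 2 and 3. Number 1 is also the treatment-named library of each group. Alternatives changed the scaling, filter, tool, covariates or libraries. Promoter sequences are from RefSeq (GRCm38.p6).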

Additional observations from a re-analysis of the deposited data

Results flagged for a closer look

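Gipr in the AAV-GFP group had 1 library far from the other 3. Replicate 1, at 30.7 CPM, lay above 11.9 to 13.4 CPM, and its gap to the nearest library was 0.920 of the range of the group, above the 95% limit of Dixon's test for 4 samples. AAV-Adipsin replicate 1, the other library described by a treatment name, was also the highest of its group, at 23.4 CPM. Of the 13 sets of 4 AAV-GFP values examined, 10 receptors and 3 ratios, this was the 1 past the limit, and chance passes about 1 in 20.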

How the results depend on the processing

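No alternative of scaling, filter, tool, covariate or library made any of the 10 receptors pass between the treatments, but these fits called at most 4 genes of all tested and 8 of the 17 called 0. The direction of Adra2a was the same in all 17. Of 170 values over the 10, 28 had the other sign. With description style as a term they were -0.039 for Glp1r, -0.0011 for Ffar1 and 0.019 for Sstr2, and limma-voom gave 0.079 for Sstr2. Glp1r was at -0.071 without both treatment-named libraries. Leaving out single libraries, values ran from -0.27 to 0.24 for Glp1r, -0.56 to 0.29 for Gipr, -0.55 to 0.24 for Gcgr, -0.080 to 0.14 for Ffar1, -0.40 to 0.071 for Gpr119, -0.046 to 0.26 for Ffar4, -0.21 to 0.28 for Sstr2, -0.059 to 0.10 for Sstr3, -0.30 to -0.087 for Adra2a (the latter without AAV-Adipsin replicate 1) and -0.15 to 0.018 for Chrm3. The median over the 10 ran from -0.12 to 0.084, and the log2 ratio differences from -0.32 to 0.24 for Sstr3 over Sstr2, 0.035 to 0.36 for Glp1r over Gipr and 0.062 to 0.34 for Ffar1 over Gpr119.

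The replicate block, which drops AAV-GFP replicate 4, called 0 receptors and 1 gene (1080 at an unadjusted p under 0.05, against 570 for the same libraries without it and 191 over all 7). Its values were -0.22 for Glp1r, -0.076 for Ffar1, 0.29 for Sstr2 and -0.024 for Sstr3. Whether the numbers pair the mice is not settled, and the highest correlation of AAV-Adipsin replicate 2 was with AAV-GFP replicate 4.

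Between the kinds of description, each receptor had the same sign in all 13 alternatives, 5 of them added after the data were seen, and the count of receptors called ran from 0 (without AAV-GFP replicate 1) to 8 (without AAV-GFP replicate 4). It was 1 without AAV-Adipsin replicate 1, 6 with DESeq2 and 3 to 5 otherwise. The number of genes called went from 1616 to 2528 with DESeq2. It ran from 39 to 4348 when single libraries were left out, and the cause was not tested. By coding length 4 of 10 receptors kept their rank. Depth limits mainly Ffar4 and Sstr2.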
